A study of Mus musculus with 8 samples.

Results

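Hox genes encode homeodomain transcription factors, and the mouse genome carries them in 4 clusters, Hoxa on chromosome 6, Hoxb on chromosome 11, Hoxc on chromosome 15 and Hoxd on chromosome 2. The gene tables of Dax1KO and control mouse embryonic stem cells (ESCs) listed 39 Hox genes among 52550 genes. The 33 Hox genes with at least 10 counts in 1 or more of the 8 libraries are described here by cluster, with calls counted by paralogue position, 10 of 11 Hoxa, 6 of 10 Hoxb, 9 of 9 Hoxc and 8 of 9 Hoxd genes. By position, 6 of 8 anterior genes (groups 1 to 3), 11 of 15 central genes (groups 4 to 8) and 16 of 16 posterior genes (groups 9 to 13) were among them. The purpose was to learn what the loss of Dax1 (Nr0b1), an orphan nuclear receptor without a classical DNA-binding domain, does to ESCs in each medium. For this, messenger RNA was sequenced from 4 groups of 2 libraries. Control ESCs and Dax1-knockout (KO) ESCs were each grown in 2i/LIF, which is serum-free N2B27 medium with 1 μM of the MEK inhibitor PD0325901, 3 μM of the GSK3 inhibitor CHIR99021 and 10 ng/ml of the cytokine LIF. The same lines were also grown in LIF/serum, a DMEM medium with 15% fetal bovine serum and 10 ng/ml LIF and without the inhibitors. All cells were mouse ESCs of passage 3 on gelatin.

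The Hox genes set the identity of body segments along the head-to-tail axis. Within a cluster they lie in the order in which they are switched on in the embryo, from the anterior genes of the hindbrain and neck to the posterior genes of the lumbar, sacral and tail region, limbs and genitalia. Genes at the same position in different clusters are called paralogues and are the most alike in sequence. In pluripotent cells the clusters are known as a classical target of Polycomb repression, and Cdx factors and retinoic acid receptors are known to activate them when cells differentiate. Hox proteins bind DNA together with the Pbx, Meis and Pknox cofactors.

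The Dax1KO line came from a single CRISPR/Cas9 colony picked in 2i/LIF. No knockout colony was obtained in LIF/serum, so the Dax1KO cells of that medium were moved there from 2i/LIF and could not be kept in it over further passages. Clone and genotype therefore cannot be told apart, and neither can genotype and recent change of medium in LIF/serum. Dax1 had counts of 456 and 300 in control and 0 and 0 in Dax1KO libraries in 2i/LIF, and of 5095 and 4689 against 14 and 6 in LIF/serum. Total counts lay between 35911384 and 37286251 per library, so the depth was alike in all groups. The pluripotency marker list (8 genes, Pou5f1, Sox2, Nanog, Esrrb, Zfp42, Klf4, Tfcp2l1 and Tbx3) summed to between 135986 and 186112 normalized counts in every library. Nothing in the descriptions says that the libraries of a group came from separate cultures, so the p-values below measure the spread between these libraries, which may be technical.

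All 33 Hox genes reached 10 counts in control cells in 2i/LIF, and none reached this limit in LIF/serum alone. The genes were thus selected on their highest count in any library, which in effect selected genes high in control cells in 2i/LIF, and the levels that follow are a description. The limit was reached by 31 of the 39 genes in Dax1KO cells in 2i/LIF, by 18 in control cells in LIF/serum and by 27 in Dax1KO cells in LIF/serum. Just inside the limit were Hoxd12, with a highest count of 11, and Hoxb3, with 12. Just outside it were Hoxd3, with 8, and Hoxa6, with 6. The other genes outside it, Hoxb1, Hoxb5, Hoxb6 and Hoxb8, had at most 3 counts in every library. Counts of 3 or less count here as not detected, a limit for counting error alone, and low values piled up at 3 and 6 in all libraries. Reads may thus not be independent, so the counting intervals below may be too narrow. Hoxd12 was not kept by the filter on low counts, so 32 Hox genes were tested. In bulk samples like these, fewer cells with a transcript and less of it per cell cannot be told apart.

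The sequences below show 5 Hox genes that were higher in Dax1KO than in control cells in LIF/serum, chosen because their RefSeq window held no annotated exon. Each is the stretch of 250 bases before the RefSeq start site on GRCm38.p6, printed 5′ to 3′ on the strand of the gene, with CpG dinucleotides in capitals. Hoxa genes lie on the minus strand and Hoxd genes on the plus strand.
Hoxa9 chr6:52227371-52227620: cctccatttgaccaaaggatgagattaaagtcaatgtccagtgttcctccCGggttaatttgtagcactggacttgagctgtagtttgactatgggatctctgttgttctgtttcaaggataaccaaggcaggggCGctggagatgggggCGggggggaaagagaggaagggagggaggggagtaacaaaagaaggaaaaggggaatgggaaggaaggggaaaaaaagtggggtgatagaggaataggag
Hoxa10 chr6:52240855-52241104: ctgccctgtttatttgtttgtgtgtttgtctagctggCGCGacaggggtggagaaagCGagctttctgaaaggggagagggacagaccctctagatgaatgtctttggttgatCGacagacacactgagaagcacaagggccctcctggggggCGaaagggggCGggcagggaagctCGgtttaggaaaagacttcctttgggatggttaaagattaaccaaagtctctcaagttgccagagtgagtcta
Hoxa13 chr6:52260881-52261130: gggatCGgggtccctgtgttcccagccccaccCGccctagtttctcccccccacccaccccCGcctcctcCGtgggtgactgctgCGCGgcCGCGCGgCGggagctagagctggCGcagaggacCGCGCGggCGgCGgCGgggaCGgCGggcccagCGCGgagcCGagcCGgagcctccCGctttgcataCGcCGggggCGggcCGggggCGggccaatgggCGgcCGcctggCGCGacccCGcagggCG
Hoxd8 chr2:74704365-74704614: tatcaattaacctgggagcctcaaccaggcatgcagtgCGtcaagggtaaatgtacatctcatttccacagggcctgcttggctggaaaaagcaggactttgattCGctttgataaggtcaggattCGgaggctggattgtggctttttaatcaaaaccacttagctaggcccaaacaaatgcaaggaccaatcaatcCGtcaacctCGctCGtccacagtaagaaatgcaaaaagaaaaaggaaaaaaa
Hoxd13 chr2:74667975-74668224: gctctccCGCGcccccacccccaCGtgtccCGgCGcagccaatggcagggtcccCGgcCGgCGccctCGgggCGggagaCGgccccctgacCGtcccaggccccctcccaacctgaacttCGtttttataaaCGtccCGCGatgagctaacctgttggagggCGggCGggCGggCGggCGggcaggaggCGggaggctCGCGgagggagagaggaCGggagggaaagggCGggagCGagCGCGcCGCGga
These 5 windows range from CpG-poor to CpG-dense: 3 CpG in Hoxa9, 7 in the upstream start of Hoxa10, 35 in Hoxa13, 6 in Hoxd8 and 31 in Hoxd13. The window of the downstream start of Hoxa10, also free of annotated exon and not printed, held 20. RefSeq windows were found for 22 of the 39 Hox genes (24 windows), and their median of 12.5 CpG stood beside a median of 6 over all 32851 promoter windows. The nuclear receptor half-site AGGTCA was searched on both strands over the 250 bases before the start. It was present in 6 of the 24 Hox windows (25%) and in 14.02% of all windows. The Hox windows that held it were those of Hoxb4, Hoxc4, Hoxd3, Hoxd4, Hoxd8 and Hoxd10. The extended half-site TCAAGGTCA was in 0 of 24 Hox windows and in 0.387% of all. The Cdx letters TTTATNG were in 2 Hox windows (8.33%) against 9.81% of all, and the Pbx-Hox composite TGATTNAT was in 2 (8.33%) against 2.82%. These matches are letters in a window and not measured sites.

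Because paralogues are alike, their reads could in principle be shared between genes. The group 13 genes Hoxc13 and Hoxd13 had the highest levels per kilobase over all groups, so the coding stretch of the recognition helix of the 4 group 13 genes (homeodomain residues 42 to 58, 51 bases, GENCODE M21) is shown with the bases that differ among the 4 genes in capitals.
Hoxa13: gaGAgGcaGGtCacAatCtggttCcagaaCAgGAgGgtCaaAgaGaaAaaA
Hoxb13: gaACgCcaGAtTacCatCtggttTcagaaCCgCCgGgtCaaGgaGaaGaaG
Hoxc13: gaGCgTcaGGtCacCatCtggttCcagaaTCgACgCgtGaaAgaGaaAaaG
Hoxd13: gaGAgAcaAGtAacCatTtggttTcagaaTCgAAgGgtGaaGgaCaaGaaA
In this stretch 19 of 51 bases varied. Over the whole homeobox the group 13 genes were 67.22% to 77.22% identical in pairs and shared no exact run of 20 bases. Over the 42 pairs of paralogues the median homeobox identity was 80.56%, and 1 pair, Hoxb9 and Hoxc9, shared an exact run as long as 50 bases. The longest exact run between clusters, 52 bases, was shared by Hoxa6 and Hoxb4, which are not paralogues. Overlapping annotation adds a second doubt, since no source says that strand was used in counting. Exons of Hoxd4 overlapped those of Hoxd3 and a read-through gene on the same strand over 52.3% of their length, Hoxb3 overlapped the antisense Hoxb3os over 52.9%, and Hoxa11 overlapped the antisense Hoxa11os over 35.0%. Values of these genes, of Hoxa3 (27.1%) and of Hoxb2 (27.3%) are uncertain for that reason. Exons of Hoxc5 and Hoxc10 overlapped each other over 5.37% and 8.70% of their length.

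**Figure D1:**
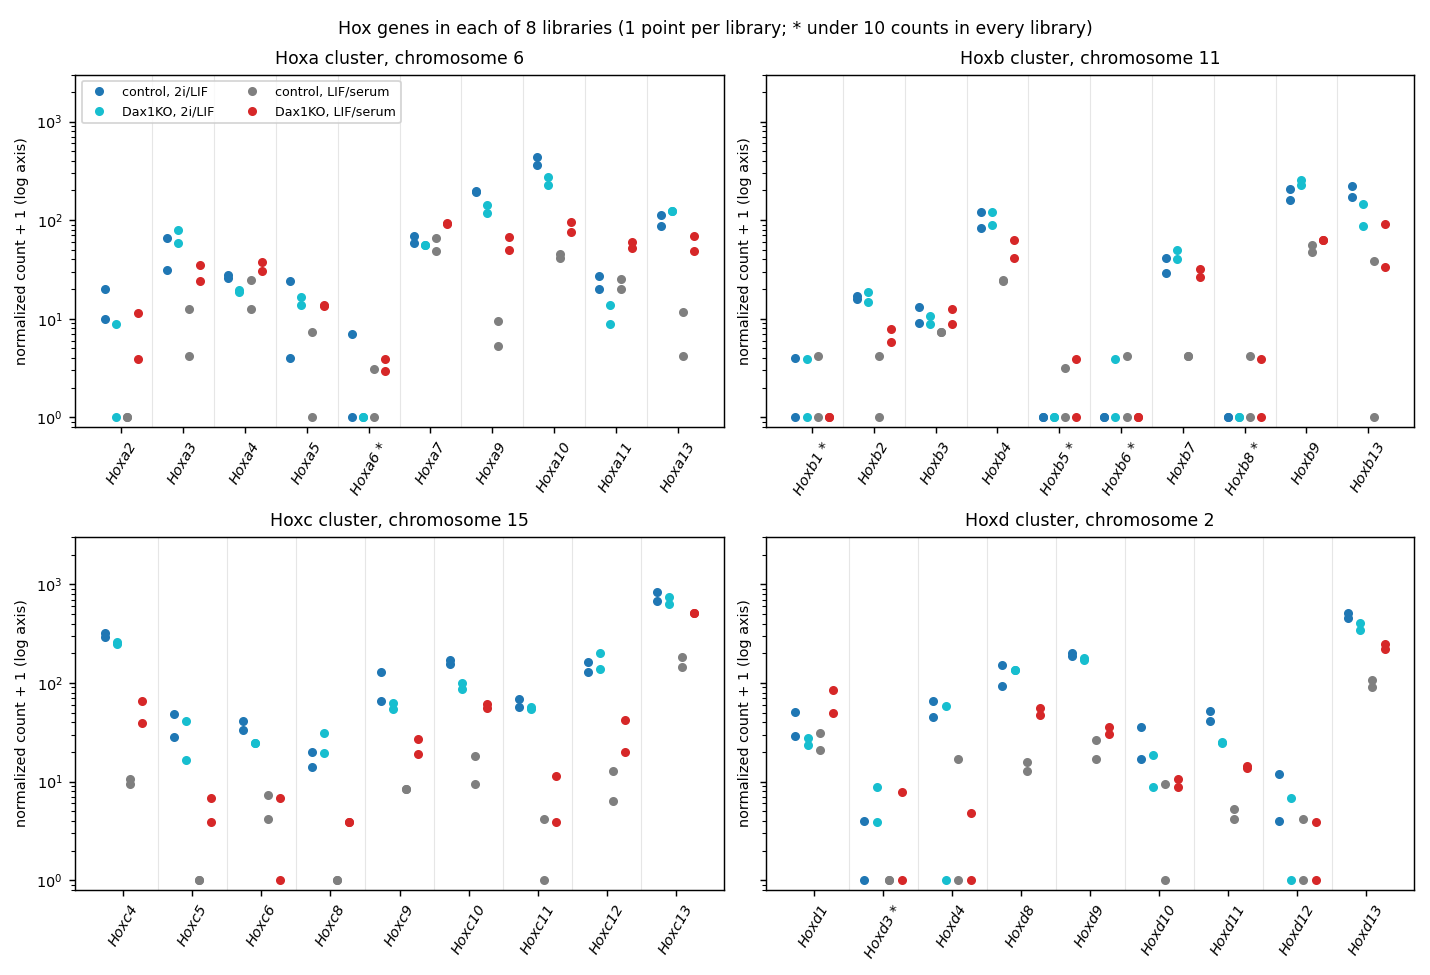
Normalized count plus 1 (log axis) of 38 Hox genes in each of the 8 libraries, 1 point per library, by cluster and in order of paralogue position. In most genes the control libraries in LIF/serum (grey) lie lowest and the Dax1KO libraries in LIF/serum (red) lie between them and the 2i/LIF libraries (blue and light blue), with Hoxc13 highest in every group.

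Summed over the 39 genes, Hox RNA was highest in 2i/LIF and lowest in control cells in LIF/serum, with Dax1KO cells in LIF/serum between them. The sum of normalized counts was 4203 ± 165 in control and 3698 ± 55.5 in Dax1KO cells in 2i/LIF, and 741 ± 136 in control and 2103 ± 215 in Dax1KO cells in LIF/serum (SD, n = 2 each). By library, these sums were 4320 and 4087, 3659 and 3738, 645 and 837, and 1951 and 2255 in that order, and no 2 groups overlapped. The sum in control cells was 5.67 times as high in 2i/LIF as in LIF/serum, and in Dax1KO cells it was 1.76 times as high. In LIF/serum the Dax1KO sum was 2.84 times the control sum, and in 2i/LIF it was 0.880 times the control sum. These ratios are given without a test.

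The order of 2i/LIF, Dax1KO in LIF/serum and control in LIF/serum held in each cluster, while the control and Dax1KO libraries of 2i/LIF overlapped for Hoxa and Hoxb. In LIF/serum the ratio of Dax1KO to control was 3.16 for Hoxa, 2.00 for Hoxb, 3.32 for Hoxc and 2.34 for Hoxd, and in 2i/LIF it was 0.926, 0.979, 0.860 and 0.806. Between media, the control ratio of 2i/LIF to LIF/serum was largest for Hoxc, at 7.77, followed by 5.51 for Hoxd, 4.93 for Hoxb and 4.35 for Hoxa.

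**Figure D2:**
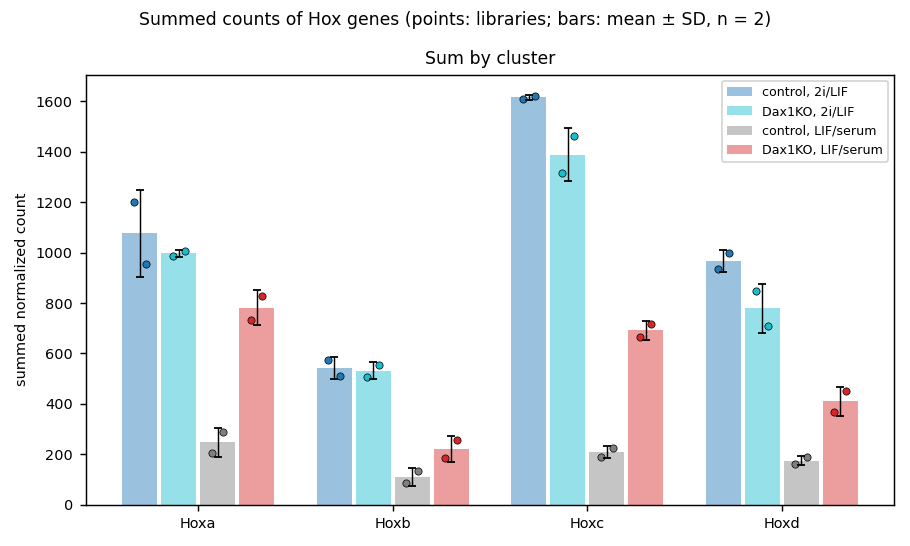
Summed normalized counts of the 39 Hox genes by cluster in the 4 groups, with bars for the mean, error bars for the SD and points for the 2 libraries. Every sum is lowest in control cells in LIF/serum, for Hoxc at 208 beside 691 in Dax1KO cells in that medium.

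Hoxc13 was the highest Hox gene by normalized count in all 4 groups and took 17.9% to 24.4% of the Hox sum, and the 5 highest genes took 50.9% to 61.3%. Posterior genes took 73.0% of the sum in control and 68.0% in Dax1KO cells in 2i/LIF, and 63.5% and 61.7% in LIF/serum. Per kilobase of exon, Hoxc13 stood at 306 normalized counts in control cells in 2i/LIF, ahead of Hoxd13 at 193, Hoxc12 at 139, Hoxa10 at 123 and Hoxc4 at 120. In control cells in LIF/serum Hoxc13 was at 66.6 and Hoxd13 at 39.8 per kilobase, and in Dax1KO cells in that medium Hoxc13 was at 209 and Hoxd13 at 93.6. In each of the 4 groups the highest gene per kilobase was Hoxc13 in the Hoxc and Hoxd13 in the Hoxd cluster, and in the Hoxb cluster it was Hoxb13 in control cells in 2i/LIF and Dax1KO cells in LIF/serum and Hoxb9 in the other groups. The level did not follow the order of the cluster gene by gene: the posterior Hoxd12 was at 2.77 per kilobase beside Hoxd13 in control cells in 2i/LIF, and Hoxc4, at the other end of its cluster from Hoxc13, was among the highest genes.

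In the tests, a gene was called at an adjusted p of at most 0.05, and all adjusted p-values below come from 1 edgeR quasi-likelihood fit, adjusted over 20749 genes by the Benjamini-Hochberg method. Control cells of the 2 media were compared first. Of the 32 Hox genes tested, 23 were called, all lower in LIF/serum than in 2i/LIF, beside 36.8% of all genes called and 20.3% called lower. All 9 Hoxc genes were called, with 5 of 10 Hoxa, 5 of 6 Hoxb and 4 of 7 Hoxd genes. By position these were 3 of 6 anterior, 7 of 11 central and 13 of 15 posterior genes. The median log2 difference was -3.19, or -2.82 with genes at 0 set to the floor, and the median of all genes tested was -0.01. In 28 of the 33 genes both LIF/serum libraries were lower than both 2i/LIF libraries, which held for 35.4% of all genes tested, and in none were both higher. Since the 33 genes were chosen where they were high, these counts describe them and do not support a direction. The genes not called were Hoxa2, Hoxa4, Hoxa5, Hoxa7, Hoxa11, Hoxb3, Hoxd1, Hoxd4 and Hoxd10.

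In LIF/serum, 10 Hox genes were upregulated in Dax1KO cells and none was downregulated, beside 14.7% of all genes called, 8.87% upregulated and 5.78% downregulated. Among them were 3 central genes, Hoxb7, Hoxc4 and Hoxd8, and 6 posterior genes, Hoxa9, Hoxa10, Hoxa13, Hoxc10, Hoxc13 and Hoxd13, so that all 4 clusters were represented. The estimate was above 0 in 30 of 32 genes, with a median log2 fold change of 1.74, or 1.49 with genes at 0 set to the floor, against 0.01 for all genes tested. Both Dax1KO libraries were higher than both control libraries in 27 of 33 genes and lower in none, where 30.3% of all genes were higher. Without the second Dax1KO library of LIF/serum, 6 were called: Hoxa10, Hoxc10, Hoxd8 and Hoxd13 missed the threshold with log2 fold changes of 0.83, 2.09, 1.78 and 1.14. Hoxa10 also missed it without either Dax1KO library of 2i/LIF, either control library of LIF/serum or the first Dax1KO library of LIF/serum, and also without the filter on low counts and in a separate fit of the LIF/serum libraries, with log2 fold changes between 0.93 and 1.17, and Hoxd8 without the first control library of LIF/serum (1.74). This comparison shares the control LIF/serum libraries with the one between media, so a high or low value in them moves both.

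In 2i/LIF, no Hox gene was called between Dax1KO and control cells by edgeR (0 of 32, beside 3.16% of all genes, 1.51% upregulated and 1.65% downregulated) or by DESeq2 (0 of 32). At an unadjusted p under 0.05 there were 4 of 32, beside 17.9% of all genes, among them Hoxa10 with a log2 fold change of -0.70, Hoxa11 with -1.13 and Hoxc10 with -0.82, and the smallest adjusted p was 0.145. The estimate was below 0 in 21 of 32 genes, with a median of -0.24 against -0.01 for all genes. Both Dax1KO libraries were lower than both control libraries in 15 of 33 genes and higher in 3, and over all genes tested these shares were 26.8% and 25%.

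The effect of Dax1KO differed between media for 6 Hox genes in the interaction term, all with a larger log2 fold change in LIF/serum, beside 2.87% of all genes called, 2.05% in that direction and 0.824% in the other. The differences in log2 fold change (standard error) were 3.74 (0.49) for Hoxa9, 1.70 (0.33) for Hoxa10, 2.77 (0.43) for Hoxc4, 2.98 (0.47) for Hoxc10, 1.78 (0.27) for Hoxc13 and 1.60 (0.27) for Hoxd13. Their adjusted p lay between 0.0148 and 0.0408. These calls rested on every library: 0 were left without the second control library of 2i/LIF, without either Dax1KO library of 2i/LIF or without the second Dax1KO library of LIF/serum, 2 without the first control library of 2i/LIF or the first Dax1KO library of LIF/serum, and, without the first or the second control library of LIF/serum, 4 and 3. For Hoxa13 and Hoxd8, also upregulated in LIF/serum, the difference between media was 2.75 and 1.77 and did not pass (adjusted p 0.0644 and 0.0959), and that of Hoxb7 did not pass either (0.0722).

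Dax1KO cells of the 2 media were compared last. 14 of the 32 Hox genes were called, 12 lower and 2 higher in LIF/serum, beside 28.9% of all genes called, 15.2% lower and 13.7% higher. The lower genes were Hoxa9, Hoxa10, Hoxb9, Hoxc4, Hoxc5, Hoxc8, Hoxc9, Hoxc11, Hoxc12, Hoxd8, Hoxd9 and Hoxd13, and the higher ones were Hoxa11 and Hoxd1. The median log2 difference was -1.05, against -0.01 over all genes. Since the genes were in effect chosen where they were high in 2i/LIF, these values describe them and do not support a direction. Without the first or the second Dax1KO library of 2i/LIF 6 were called, and without the first or the second of LIF/serum 8. Hoxa10, Hoxa11, Hoxb9, Hoxc4, Hoxc12 and Hoxd9 were called in each of these 4 fits.

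**Figure D3:**
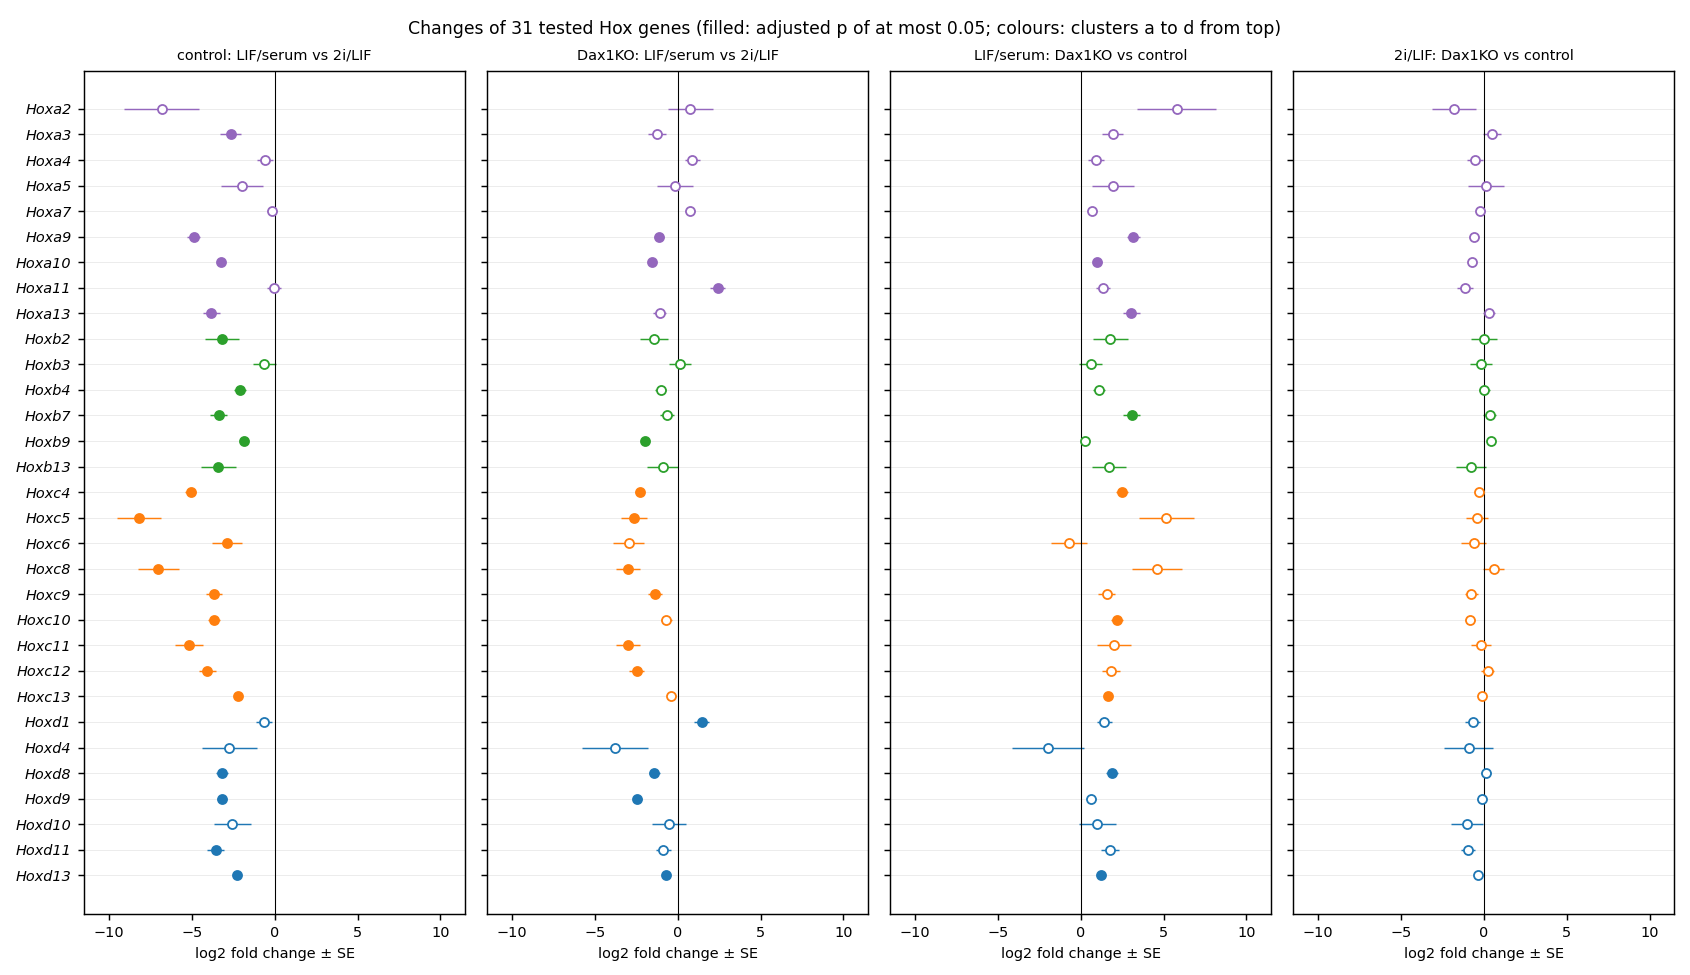
Log2 fold change and standard error of 31 tested Hox genes in 4 comparisons, with filled points at an adjusted p of at most 0.05 (22, 14, 9 and 0 genes from left to right). Hoxa2, Hoxc5 and Hoxc8 had 0 counts in both control LIF/serum libraries, so their fitted values in the panels for control between media and for Dax1KO in LIF/serum depend on the prior count and are no measured folds.

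Among the Hoxa genes, Hoxa9, active in blood progenitors and the posterior axis, showed the largest called increase in LIF/serum by log2 fold change. Its counts were 196 and 190 in control and 147 and 119 in Dax1KO cells in 2i/LIF, and 4 and 8 against 51 and 69 in LIF/serum. All 4 groups were apart, with control LIF/serum lowest. Its log2 fold change of Dax1KO in LIF/serum was 3.16 (in brackets its standard error, 0.39, then the adjusted p of 0.00380, as for the genes that follow), and control cells were lower in LIF/serum by -4.89 (0.39, adjusted p = 8.92e-05).

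Hoxa10 and Hoxa13, which act in the limb and the reproductive tract, were high in 2i/LIF and low in control LIF/serum as well. Hoxa10 had counts of 440 and 364 in control and 231 and 278 in Dax1KO cells in 2i/LIF, and of 38 and 42 against 79 and 98 in LIF/serum. Hoxa13 had 111 and 87, 126 and 126, 3 and 10, and 72 and 49 in the same order. The groups did not overlap in LIF/serum in either gene, and the log2 fold changes of Dax1KO there were 1.01 (0.25, adjusted p = 0.0327) and 3.05 (0.49, adjusted p = 0.00847). In 2i/LIF Dax1KO libraries were lower for Hoxa10 and higher for Hoxa13, with estimates of -0.70 and 0.31 that did not pass.

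Hoxa11, a gene of the forearm and uterus, went the other way between media in Dax1KO cells. It had counts of 26 and 19 in control and 13 and 8 in Dax1KO cells in 2i/LIF, and of 18 and 23 against 54 and 61 in LIF/serum. The control libraries of the 2 media overlapped (log2 difference -0.05), and the Dax1KO libraries were lowest in 2i/LIF and highest in LIF/serum, with a log2 difference of 2.43 (0.45, adjusted p = 0.00571). The antisense Hoxa11os, which overlaps it, had 2 and 10 counts in Dax1KO cells in 2i/LIF and 29 and 38 in LIF/serum, and was called in the same comparison (2.44, 0.77, adjusted p = 0.0459). Reads of the pair cannot be told apart without strand.

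Hoxa3, a gene of the neck and thymus, had 65 and 30 counts in control and 80 and 59 in Dax1KO cells in 2i/LIF, and 11 and 3 against 24 and 35 in LIF/serum. It was called between media in control cells (-2.66, 0.65, adjusted p = 0.0140), but not without the first control library of 2i/LIF (-1.999) or the second of LIF/serum (-1.987). Hoxa2, Hoxa4, Hoxa5 and Hoxa7 were called in no comparison. Hoxa7 had 45 to 68 counts in all but the Dax1KO libraries of LIF/serum, which had 96 and 92, and Hoxa4 had 11 to 38 counts throughout. Hoxa5 had at most 23 counts and Hoxa2 at most 19. Hoxa2 was at 0 in both control LIF/serum libraries, with 11 and 3 counts in Dax1KO cells of that medium. Against a floor of 3 counts per library, scaled like the normalized counts, control cells in 2i/LIF (19 and 9 counts) were at least 4.397-fold higher, and this comparison had an adjusted p of 0.0519.

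In the Hoxb cluster, only Hoxb2, Hoxb3, Hoxb4, Hoxb7, Hoxb9 and Hoxb13 reached the limit. Hoxb4, known for its role in blood stem cells, had counts of 120 and 83 in control and 90 and 122 in Dax1KO cells in 2i/LIF, and of 22 and 22 against 42 and 63 in LIF/serum. Its control level fell in LIF/serum (-2.11, 0.37, adjusted p = 0.00306), and the Dax1KO fold change there, 1.11 (0.37), had an adjusted p of 0.0810. Hoxb7 had 40 and 28, 50 and 40, 3 and 3, and 32 and 26 counts in the same order, so the control libraries of LIF/serum were at the floor. It was the only Hoxb call for Dax1KO in LIF/serum (adjusted p = 0.00919), and its summed counts, 58 against 6, gave a ratio of 8.78 (95% exact counting interval 3.80 to 24.9).

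Hoxb9, a gene of the thoracic region, had counts of 159 and 206 in control and 264 and 233 in Dax1KO cells in 2i/LIF, and of 44 and 52 against 64 and 64 in LIF/serum. It was lower in LIF/serum in both lines, by -1.84 (0.25) in control and -1.97 (0.24) in Dax1KO cells, with adjusted p of 0.000921 and 0.000850. Its Dax1KO fold change, 0.41 (0.23) in 2i/LIF and 0.28 (0.25) in LIF/serum, passed the threshold in neither medium.

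Hoxb13, a gene of the tail and prostate, had 223 and 172, 88 and 148, 0 and 35, and 34 and 92 counts in the same order. The LIF/serum libraries of a group were far apart, and those of control and Dax1KO cells overlapped. Hoxb13 was called between media in control cells (-3.40, 1.04, adjusted p = 0.0345), but not with DESeq2, without the filter on low counts, or without either control or either Dax1KO library of 2i/LIF. Because 1 control LIF/serum library of Hoxb13 was at 0 and the other at 35, its estimate ran from -10.63 to -2.40 over the alternatives. Hoxb2, a gene of the hindbrain, had at most 18 counts and was called in the same comparison (adjusted p = 0.0389), but not in 7 of 8 fits with a library left out. In control cells its counts summed to 31 in 2i/LIF against 3 in LIF/serum, a ratio of 9.73 (95% exact counting interval 3.04 to 49.7). Its counts were 16 and 15, 18 and 14, 0 and 3, and 5 and 7 in that order, and those of Hoxb3, which was called nowhere, lay between 6 and 12.

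All 9 Hoxc genes were called lower in control cells in LIF/serum, which describes genes in effect chosen where they were high. Hoxc4, the most anterior Hoxc gene, had counts of 320 and 294 in control and 257 and 263 in Dax1KO cells in 2i/LIF, and of 9 and 8 against 40 and 66 in LIF/serum. The groups were all apart, control LIF/serum lowest. The differences were -5.07 (0.34, adjusted p = 4.76e-05) between media in control cells, -2.30 (0.28, adjusted p = 0.000768) in Dax1KO cells, and 2.49 (0.34, adjusted p = 0.00514) between Dax1KO and control in LIF/serum.

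The central genes Hoxc5, Hoxc6 and Hoxc8, which act in the neck and thorax, were low. Hoxc5 had 47 and 27 counts in control and 41 and 16 in Dax1KO cells in 2i/LIF, and 0 and 0 against 3 and 6 in LIF/serum. Hoxc8 had 19 and 13, 31 and 19, 0 and 0, and 3 and 3 in the same order. Against the scaled floor of 3 counts per library, control cells in LIF/serum were at least 11.6-fold lower than in 2i/LIF for Hoxc5 and at least 5.02-fold lower for Hoxc8 (adjusted p = 0.00323 and 0.00491). In Dax1KO cells both were also called lower in LIF/serum, with adjusted p of 0.0413 and 0.0220. The log2 difference was -2.64 (0.77) for Hoxc5, and for Hoxc8 the summed counts, 50 against 6, gave a ratio of 8.41 (95% exact counting interval 3.61 to 24.0). With a library left out these calls missed the threshold in 6 of 8 fits for Hoxc5 (-3.22 to -1.82) and in 4 of 8 for Hoxc8, in each case without any 1 of the 4 Dax1KO libraries, and for Hoxc5 also without either control library of 2i/LIF and without the filter on low counts. Hoxc6 had 32 and 40, 24 and 24, 6 and 3, and 6 and 0 counts. It was called between media in control cells (-2.88, 0.90, adjusted p = 0.0379), but not in 6 of 8 fits with a library left out, and its adjusted p in Dax1KO cells was 0.0501.

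Of the posterior Hoxc genes, Hoxc9, Hoxc10, Hoxc11 and Hoxc12 serve the thoracic to sacral axis. Hoxc10 had counts of 170 and 155 in control and 102 and 87 in Dax1KO cells in 2i/LIF, and of 8 and 16 against 57 and 62 in LIF/serum. All 4 groups were apart. In LIF/serum it was upregulated in Dax1KO cells by 2.16 (0.36, adjusted p = 0.00957), and in 2i/LIF the estimate of -0.82 (0.31, adjusted p = 0.208) did not pass.

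Hoxc12 had 160 and 127, 140 and 206, 11 and 5, and 20 and 42 counts, and Hoxc11 had 56 and 68, 55 and 58, 3 and 0, and 11 and 3. Hoxc9 had 128 and 65, 55 and 63, 7 and 7, and 19 and 27. These 3 genes were lower in LIF/serum in both lines, in Dax1KO cells by -2.49, -3.01 and -1.37 (Hoxc12, Hoxc11 and Hoxc9). In control cells the difference was -4.06 for Hoxc12 and -3.68 for Hoxc9, and Hoxc11, with 124 summed counts in 2i/LIF and 3 in LIF/serum, had a ratio of 38.9 (95% exact counting interval 13.01 to 191). Their adjusted p was at most 0.00263 in control cells and 0.00475, 0.0150 and 0.0438 in Dax1KO cells. In Dax1KO cells the Hoxc9 call was lost with DESeq2, with counts divided by 3, without the filter on low counts and without any 1 of the 4 Dax1KO libraries and without either control library of LIF/serum (-1.66 to -1.12), and the Hoxc11 call without either Dax1KO library of 2i/LIF or the second of LIF/serum (-3.05 to -2.37). In LIF/serum the Dax1KO fold changes of Hoxc12 and Hoxc9, 1.80 and 1.56, did not pass (adjusted p 0.0579 and 0.0736), nor did that of Hoxc11 (0.224), whose libraries overlapped.

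Hoxc13, known for its role in hair and nails, had counts of 673 and 833 in control and 646 and 762 in Dax1KO cells in 2i/LIF, and of 136 and 172 against 536 and 527 in LIF/serum. The control and Dax1KO libraries overlapped in 2i/LIF and were far apart in LIF/serum. It had the smallest adjusted p of all Hox genes for Dax1KO in LIF/serum, and its log2 fold change was 1.65 (0.20, adjusted p = 0.00332). Control cells differed between media by -2.20 (0.20, adjusted p = 0.000155), while in Dax1KO cells the difference of -0.42 (0.19) had an adjusted p of 0.136.

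In the Hoxd cluster, Hoxd13, a gene of the digits, had counts of 451 and 506 in control and 414 and 350 in Dax1KO cells in 2i/LIF, and of 101 and 85 against 228 and 253 in LIF/serum. The groups were all apart. Its log2 fold change of Dax1KO in LIF/serum was 1.23 (0.20, adjusted p = 0.00845), and it was lower in LIF/serum in control cells by -2.28 (0.20, adjusted p = 0.000138) and in Dax1KO cells by -0.68 (0.19, adjusted p = 0.0304), a call that was lost without any 1 of the 4 Dax1KO libraries (-0.79 to -0.56).

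Hoxd8 and Hoxd9, genes of the trunk and limb, differed by 0.13 and -0.14 between Dax1KO and control cells in 2i/LIF, and neither difference passed. Hoxd8 had 92 and 152, 137 and 138, 11 and 14, and 48 and 56 counts. Hoxd9 had 198 and 186, 183 and 176, 15 and 24, and 31 and 36. Dax1KO cells exceeded control cells in LIF/serum in both genes, and the difference passed for Hoxd8 (1.91, 0.36, adjusted p = 0.0145) and not for Hoxd9 (0.64, 0.31, adjusted p = 0.203). Both were lower in LIF/serum than in 2i/LIF in control cells (-3.19 and -3.20) and in Dax1KO cells (-1.41 and -2.43), where the Hoxd8 call was lost without either Dax1KO library of 2i/LIF or the first of LIF/serum (-1.42 to -1.29).

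Hoxd11, which shapes the forearm, had 51 and 40, 24 and 25, 4 and 3, and 14 and 13 counts, and was called between media in control cells alone (-3.57, 0.51, adjusted p = 0.00131). Its Dax1KO fold change in LIF/serum was 1.77 (0.54, adjusted p = 0.0622). Hoxd1, an anterior gene at the other end of the cluster, had 28 and 50, 23 and 27, 19 and 28, and 51 and 87 counts. Control libraries of the 2 media overlapped, and Dax1KO libraries were higher in LIF/serum than in 2i/LIF by 1.45 (0.46, adjusted p = 0.0466). This call missed the threshold in 6 of 8 fits with a library left out (1.00 to 1.79). It was also lost with DESeq2 and without the filter on low counts. The remaining Hoxd genes were called nowhere: Hoxd4 had 0 to 65 counts, with a 0 in 1 library of 3 of the 4 groups, Hoxd10 had 0 to 35, and Hoxd12 had at most 11.

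The Hoxa cluster lies on chromosome 6, whose genes were shifted up in the Dax1KO line in both media. The other 1044 tested genes of chromosome 6 had a median of 0.45 (log2 fold change) in 2i/LIF, with 104 upregulated and 7 downregulated, and of 0.51 in LIF/serum, with 294 upregulated and 17 downregulated. In 2i/LIF the Hoxa median was -0.37, which is 0.81 below the chromosome, and 2 of the 10 tested Hoxa genes lay above the chromosome's median. In LIF/serum the Hoxa median was 1.93, which is 1.42 above it, and 10 of 10 lay above it. With Hoxa2, at 0 in both control libraries of LIF/serum, set to the floor, the Hoxa median was 1.63. The medians of the other genes of chromosomes 11, 15 and 2 lay between -0.04 and 0 in 2i/LIF and were 0.09, 0.06 and -0.02 in LIF/serum. Beside them the medians in LIF/serum were 1.41 for Hoxb, 2.00 for Hoxc (1.65 with Hoxc5 and Hoxc8 set to the floor) and 1.23 for Hoxd. The part of the chromosome 6 shift in the Hoxa values was not tested.

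**Figure D4:**
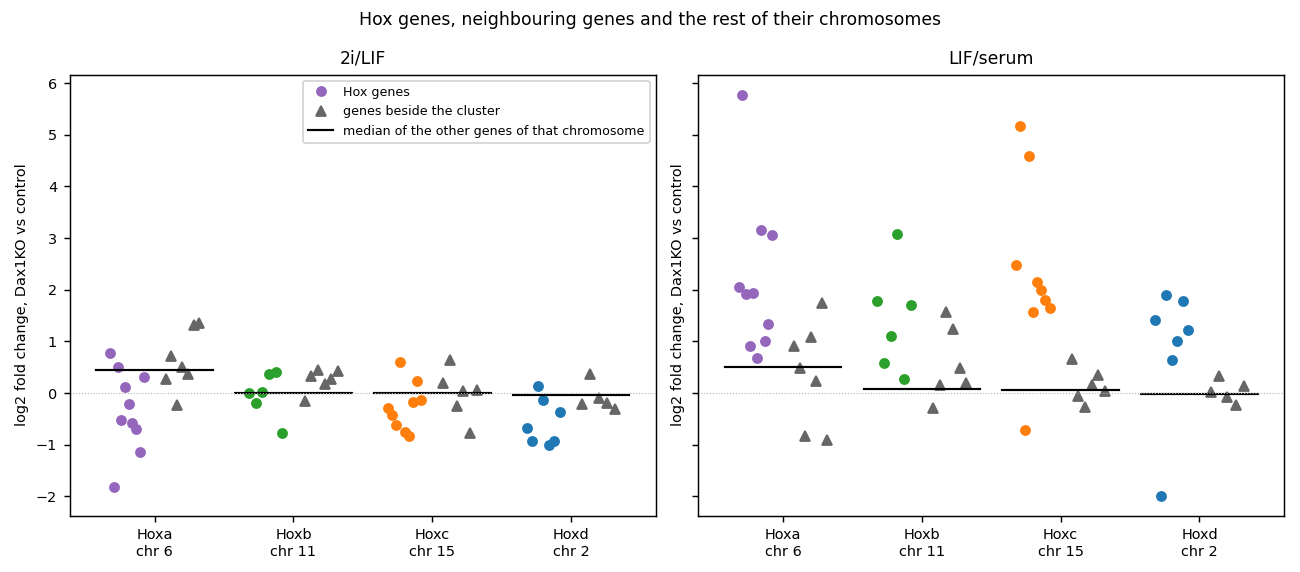
Log2 fold change of Dax1KO against control, 2i/LIF on the left and LIF/serum on the right, for tested Hox genes (coloured points), genes listed beside each cluster (grey triangles) and the median of the other genes of the chromosome (line). In LIF/serum all 10 Hoxa genes lie above the chromosome 6 median of 0.51, and most Hoxb, Hoxc and Hoxd genes lie well above chromosome medians near 0. Hoxa2, Hoxc5 and Hoxc8 are drawn at fitted values that depend on the prior count, since control cells in LIF/serum had 0 counts.

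The genes beside the clusters did not share one pattern with the Hox genes. Of the 7 genes listed beside Hoxa, Skap2 and the non-coding Halr1 were upregulated in 2i/LIF, and in LIF/serum Snx10, Skap2 and Hibadh were upregulated and Halr1 was downregulated. Halr1 had 32 and 27 counts in control and 86 and 70 in Dax1KO cells in 2i/LIF, and 967 and 882 against 542 and 537 in LIF/serum. It was thus highest in control LIF/serum, where most Hox genes were lowest, with log2 fold changes of Dax1KO of 1.36 (0.21, adjusted p = 0.0183) in 2i/LIF and -0.92 (0.17, adjusted p = 0.0135) in LIF/serum. Of 10 non-coding Hox RNAs found in the files 6 were tested, and 1 was upregulated in LIF/serum. Beside Hoxb and Hoxc, 1 of 6 listed genes each was upregulated in LIF/serum, Calcoco2 (1.25) and Smug1 (0.66). The median of the 5 tested genes beside Hoxd was 0.02 in LIF/serum.

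Known partners and regulators of Hox genes were read from fixed lists. Of the 9 cofactors, Meis2 was downregulated in 2i/LIF (-1.57, 0.19, adjusted p = 0.00962) and Pbx3 in LIF/serum (-1.07, 0.21, adjusted p = 0.0170), and the other 8 in each medium did not pass. Meis2 had 1305 and 1079 counts in control and 367 and 456 in Dax1KO cells in 2i/LIF, and 190 and 158 against 236 and 210 in LIF/serum. Of the 10 activators, 9 were tested and Cdx1 alone was called, upregulated in both media. Cdx1, a factor that switches on Hox genes in the embryo, had 79 and 144 against 542 and 663 counts in 2i/LIF and 67 and 88 against 270 and 365 in LIF/serum, with log2 fold changes of 2.39 (0.33, adjusted p = 0.0145) and 1.90 (0.33, adjusted p = 0.0105). Its part in the Hox values was not tested. Cdx2 had 0 counts in the 4 libraries of 2i/LIF and 7 to 24 in LIF/serum.

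Of the 17 Polycomb genes, 1 was upregulated and 1 downregulated in 2i/LIF, and 3 were upregulated and 2 downregulated in LIF/serum. Ezh2, the main methyltransferase of Polycomb complex PRC2 and itself on chromosome 6, was upregulated in both media (0.64 and 0.47). Rnf2, the ubiquitin ligase of PRC1, was downregulated in both (-1.30 and -1.20), with 5939 and 4825 against 2274 and 2215 counts in 2i/LIF and 6229 and 4151 against 2504 and 2454 in LIF/serum. In LIF/serum the PRC2 subunit Eed was downregulated (-0.65), and Ezh1 (0.72) and Phc1 (0.49) were upregulated. The median log2 fold change of the list was 0.0035 in 2i/LIF and 0.06 in LIF/serum.

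Lists of markers of other cells gave mixed results for Dax1KO in LIF/serum, beside 8.87% of all genes upregulated and 5.78% downregulated. The primitive endoderm list (Gata6, Gata4, Sox17, Sox7, Pdgfra, Foxa2 and Dab2) summed to 1075 to 1399 normalized counts in 2i/LIF, to 4000 and 5599 in control and to 12481 and 14792 in Dax1KO cells in LIF/serum, and 5 of 7 genes were upregulated by Dax1KO in that medium. Between media, 7 of 7 genes of this list were called higher in LIF/serum than in 2i/LIF in control cells. In the fibroblast list of 10 genes, 7 were tested and 3 of these were upregulated in LIF/serum. The sum was 2195 to 2695 in control and 1959 to 1973 in Dax1KO cells in 2i/LIF. In LIF/serum it was 780 to 885 against 2060 to 2208. The upregulated genes were Col1a1 (2.13), Pdgfrb (1.79) and Thy1 (1.63), while Col3a1, Postn and Lum were at 0 in all LIF/serum libraries, Prrx1 in both control and Dcn in both Dax1KO libraries. The sum was mostly Thy1, with 1721 and 2188, 1122 and 1111, 390 and 383, and 1346 and 1282 counts. Of 6 tested mesoderm and streak genes Eomes alone was called in LIF/serum (1.05), and that list summed to 767 to 1185 in 2i/LIF and to 406 to 476 in control and 687 to 776 in Dax1KO cells in LIF/serum. The neural list had 1 of 4 tested genes downregulated in LIF/serum (Pax6). Its sums there were 1049 to 1080 in control and 670 to 683 in Dax1KO cells, and in 2i/LIF 3117 to 3139 and 2904 to 3049. Of 6 trophectoderm genes 2 were upregulated (Krt18 and Hand1) and 1 downregulated (Tfap2c) in LIF/serum. The sums of that list there were 3698 to 3780 in control and 4417 to 4946 in Dax1KO cells, and in 2i/LIF 3683 to 4055 and 5264 to 5373. The part of such cells in the Hox values was not tested.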

How the data were processed

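Messenger RNA of 8 mouse ESC libraries was sequenced on an Illumina HiSeq. The authors deposited raw read counts per gene and library. The submitters' processing notes name HISAT2 2.0.4, DESeq2 and mm10 without a role or order, and the counting tool, strand setting and annotation are not given in the sources used here. The counts are whole numbers of 52550 genes. Symbols were taken from GENCODE M21 by gene identifier, and 147 genes had none.

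The counts were analysed in R 4.3.3 with edgeR 4.0.16 and limma 3.58.1. Genes were filtered with filterByExpr, libraries were scaled with TMM, and 1 quasi-likelihood model with 4 group means gave 5 comparisons over 20749 genes, adjusted by Benjamini-Hochberg. All 4 groups shared 1 estimate of the spread. A normalized count is the count scaled to the mean of the TMM-scaled library sizes. Levels per kilobase used the exon length of GENCODE M21 (GRCm38), and promoter windows came from RefSeq (GRCm38.p6). The 33 genes, the gene lists and the tests were chosen with earlier results of these data known. Genes named with counts in every library were those called in any of the 5 comparisons and the highest per kilobase in each cluster, with others named to account for the full set. The floor was 3 counts per library, scaled like the normalized counts. Ratios against groups with at most 3 counts in each library have 95% exact (Clopper-Pearson) intervals. The floor and the intervals cover counting error only. The intervals also take reads as independent, which the pile-up of low counts at 3 and 6 puts in doubt. On simulated counts for Dax1KO against control in LIF/serum, 194 of 20091 genes were changed and the groups were otherwise alike. Of genes raised by 2 on the log2 scale 66% were recovered, and of genes raised by 1, 38%. Of 110 calls, 9 were false. In the data 3041 genes were called in that comparison, so these shares may not carry over to it. DESeq2 1.42.0, other scalings and filters, a replicate block, separate fits, divided counts and leaving out each library were tried as alternatives. 1 Hox gene is not reported here by name, while counts, sums and medians over the Hox genes include it, and sums by paralogue position, which rest on it, are left out.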

Additional observations from a re-analysis of the deposited data

Results flagged for a closer look

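The effect of Dax1KO differed between the media in the interaction term of the edgeR fit for 6 Hox genes and 7 genes of the other lists. The difference in log2 fold change, LIF/serum minus 2i/LIF, was 3.74 for Hoxa9, 2.98 for Hoxc10, 2.77 for Hoxc4, 1.78 for Hoxc13, 1.70 for Hoxa10 and 1.60 for Hoxd13. It was 1.79 for the cofactor Meis2, which was downregulated in 2i/LIF alone, and -2.28 for the non-coding Halr1 beside the Hoxa cluster, which was upregulated in 2i/LIF and downregulated in LIF/serum. Among the markers of other cells it was 2.77 for Hand1, 2.51 for Gata6, 2.47 for Thy1, 1.60 for Gata4 and -2.68 for Pax6. With a library left out, the difference missed the threshold in 8 of 8 fits for Hoxa10, 7 of 8 for Hoxc4 and Hoxd13, 6 for Hoxc10, 5 for Hoxc13 and 4 for Hoxa9. For Meis2 it missed the threshold unless the library left out was the first control library of LIF/serum, and for Halr1 it missed the threshold without the first Dax1KO library of 2i/LIF. For Pax6 it missed the threshold in 7 of these fits, for Hand1, Gata4 and Gata6 in 6 and for Thy1 in 0. Without the filter on low counts, Hoxa9 was the only Hox gene still past the threshold.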

How the results depend on the processing

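No value called for a single gene changed direction under any alternative. At least 10 counts in every library left 6 Hox genes called for Dax1KO against control in LIF/serum, 3 in the interaction, 8 between media in control and 7 in Dax1KO cells. Without a filter on low counts the interaction called 1 Hox gene. At an unadjusted p under 0.05 there were 4 Hox genes in 2i/LIF, 21 in LIF/serum and 18 in the interaction. With 1 library left out, where a lone library was assumed to vary like the other groups, the Hox counts were 6 to 10 in LIF/serum, 0 to 4 in the interaction, 18 to 22 between media in control cells and 6 to 13 in Dax1KO cells. Scaling without chromosome 6 left these Hox counts at 0, 10, 6, 23 and 14. The causes were not tested.

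Over all genes, 656 were called in 2i/LIF, against 1441 with DESeq2, 121 without the filter, 3712 unadjusted and 38 to 673 with a library left out. In LIF/serum 3041 were called, against 1842 without the filter, 1743 in a separate fit, 6363 unadjusted and 728 to 2496 with a library left out. In the interaction 596 were called, against 1510 with DESeq2, 119 without the filter, 3970 unadjusted and 36 to 344 with a library left out. Between media 7641 were called in control and 5999 in Dax1KO cells, against 5057 to 7120 and 2986 to 6287 with a library left out.

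Replicate numbers did not pair the samples, with correlations of deviations between -0.0023 and 0.108 over 2 numbers. With the replicate number as a block, 0, 11, 5, 22 and 12 Hox genes and 573, 3218, 552, 7754 and 6075 of all genes were called for Dax1KO in 2i/LIF, in LIF/serum, the interaction, and between media in control and Dax1KO cells. The block lost the calls of Hoxa10 in the interaction, of Hoxb2 between media in control cells and of Hoxc5 and Hoxc9 in Dax1KO cells. Where every library of a group held 3 counts or less of a gene, its fold in the text is given as a bound or with a counting interval.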
